A study of Mus musculus with 6 samples.

Results

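The transcripts of the mouse ATG8 proteins and of the ATG4 proteases that process them were compared between fetal liver cells before and after a short culture with erythropoietin, which red cell precursors need to survive and mature. The members were chosen by gene symbol, from mouse annotation GENCODE M21: 5 genes of the ATG8 family (Map1lc3a, Map1lc3b, Gabarap, Gabarapl1 and Gabarapl2) and 4 ATG4 genes (Atg4a, Atg4b, Atg4c and Atg4d). These 9 are among 54232 gene IDs listed per library, of which 29342 had a count in any library, and all 9 passed the filter on low counts that left 16150 genes for testing. The cells, labelled as progenitor cells, came from C57/B6 embryos at E13.5 and were the fraction negative for Ter-119, which marks later red cell stages. The day 0 group holds 3 libraries with no treatment. The 30 h group holds 3 libraries of cells cultured for 30 h in erythropoietin medium, which received the solvent DMSO at 24 h for the last 6 h as the control arm of a caspase inhibitor treatment (Z-VAD-FMK, not analysed here). The groups therefore differ in culture and in DMSO at once, and these cannot be told apart.

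ATG8 proteins are small ubiquitin-like proteins of the autophagosome, the double membrane vesicle that carries cell contents to the lysosome. An ATG4 protease trims the new protein to expose a glycine near its end, ATG7, ATG3 and the ATG12-ATG5-ATG16L1 complex then couple that glycine to a membrane lipid, and ATG4 can later cut the protein off the lipid again. Coupled ATG8 proteins bind cargo receptors, and in maturing red cells this machinery is known for clearing mitochondria, with BNIP3L (NIX) as a receptor. The family has an LC3 branch (Map1lc3a and Map1lc3b), tied mainly to growth of the membrane, and a GABARAP branch (Gabarap, Gabarapl1 and Gabarapl2), tied to later steps and fusion with the lysosome.

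The link between both families lies at the end of the ATG8 coding sequence. The last 36 coding bases, without the stop codon, of the principal GENCODE M21 transcript of 4 of the genes are given 5′ to 3′ to show the substrate of ATG4, with the last glycine codon in capitals:
Map1lc3a: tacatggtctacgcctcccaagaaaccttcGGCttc
Gabarap: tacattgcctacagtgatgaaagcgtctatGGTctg
Gabarapl1: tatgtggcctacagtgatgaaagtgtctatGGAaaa
Gabarapl2: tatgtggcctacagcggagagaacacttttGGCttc
The glycine codon was followed by 1 codon in each of these 4 genes. It was codon 120 of Map1lc3a and codon 116 of the GABARAP branch genes. Coding sequences of Map1lc3a and Map1lc3b were identical at 76.3% of aligned bases and those of Gabarap and Gabarapl1 at 74.6%. The other ATG8 pairs ranged from 53.0% to 63.5% and the 6 pairs of ATG4 genes from 60.3% to 65.3%. Within either family, the longest run of identical bases in the aligned pairs was 17 (Gabarap and Gabarapl1).

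Library totals ran from 27754279 to 29949173 counts at day 0 and from 19241780 to 24154481 at 30 h. Marker genes showed what else the libraries held: all 11 erythroid markers rose, while hepatoblast markers fell in 8 of 8 cases, mesenchymal markers in 7 of 7 and endothelial markers in 6 of 7. The summed level of the erythroid markers was 1744 to 1943 CPM (counts scaled to a common library size, with TMM scaling between libraries) at day 0 and 121610.3 to 174750.2 CPM at 30 h, highest in 30 h replicate 3. In that library the globin genes Hbb-bs (106624.4 CPM) and Hbb-bt (38154.2 CPM) made up most of the sum. Gata1, Klf1, Epor, Alas2 and Slc4a1 were lowest of the 30 h group there, and the other erythroid markers were highest. The summed level of hepatoblast markers went from between 12955 and 14588 CPM at day 0 to between 761 and 2223.5 CPM at 30 h, that of mesenchymal markers from between 1513 and 1932 to between 29.3 and 74.1 CPM, and that of endothelial markers from between 267 and 288 to between 147 and 187 CPM. At 30 h the endothelial markers Cdh5, Stab2 and Lyve1 were each at or below 0.315 CPM in every library, and Stab2 was at 0 in 1. Pecam1, which blood cells also express, fell from 49.2 to 28.4 CPM on average, and Egfl7, from 97.2 to 126.7 CPM, was the endothelial marker called higher (edgeR adjusted p = 0.0468) and made up most of the 30 h sum. Sums for macrophage markers (145 to 163 and 153 to 233.5 CPM) and megakaryocyte markers (664.5 to 791 and 718 to 1089.7 CPM) overlapped between the groups, with 3 of 8 macrophage markers higher and 2 lower and 1 of 6 megakaryocyte markers higher and 2 lower. Granulocyte and mast cell markers gave 2 higher and 4 lower of 7, with a higher sum at 30 h (3060.0 to 3164 and 3544 to 5540.2 CPM), and B lymphoid markers gave 3 lower and 0 higher of 6 (25.8 to 27.0 and 12.4 to 16.2 CPM; 0 were higher at an unadjusted p below 0.05 in edgeR). Raw counts of 30 h replicate 3 stood apart from those of 30 h replicates 1 and 2: chi-square divided by its degrees of freedom was 88.6 and 48.8, against 11 between the latter pair. Marker calls are to be read against all genes tested, of which edgeR called 34.4% higher and 40.1% lower. Marker counts near these shares are no result about a cell type. The part of the shifts above in the changes of the members was not tested. In bulk libraries, more cells of a type and more RNA per cell cannot be told apart.

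Transcripts of 8 of the 9 members were higher at 30 h than at day 0 and those of 1, Atg4c, did not pass the test. The calls are those of edgeR's quasi-likelihood test at an adjusted p below 0.05, which called 34.4% of all genes tested higher and 40.1% lower, so a call by itself was common here. The median log2 change was 1.67 over the members, with a range from -0.37 to 2.81, against -0.09 over all genes tested. No member was called lower by edgeR or by limma, whereas 1 (Atg4c) had an unadjusted p below 0.05 in edgeR and DESeq2 called it lower. For no member did day 0 and 30 h values overlap: 8 were higher in every 30 h library than in every day 0 library, as were 36.3% of all genes tested, and 1 was lower, as were 43.4%. Without 30 h replicate 3 the counts were again 8 higher and 0 lower, but the share of all genes called in that setting was not worked out.

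**Figure D1:**
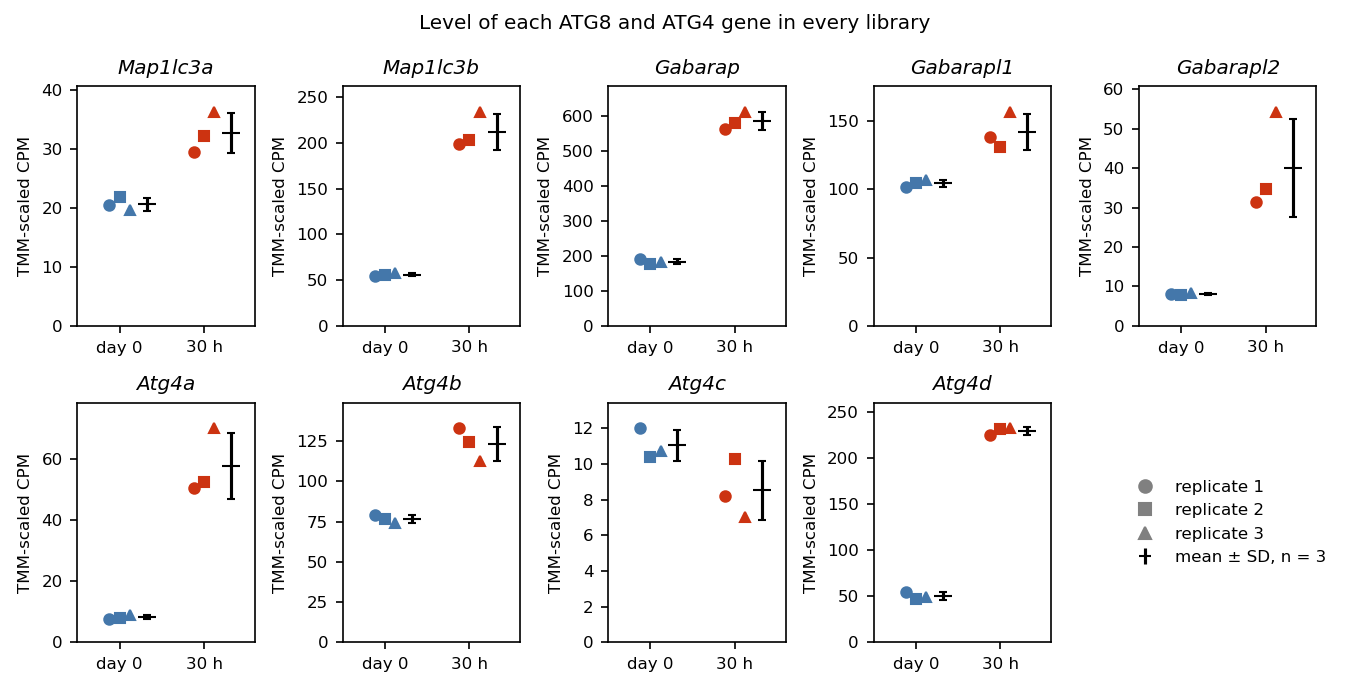
Level of each of the 9 genes in TMM-scaled CPM (vertical axes, each starting at 0) in the 3 day 0 and 3 30 h libraries. Points are libraries, with shape for the replicate number, and black bars are the mean ± SD of 3 libraries. Atg4c is the member whose 30 h points lie below its day 0 points.

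Gabarap encodes the founding protein of the GABARAP branch and was the member with the highest level per length in both groups (ENSMUSG00000018567, chromosome 11, 69991143 to 69994951, plus strand, mm10). Its level was 191, 177 and 183 CPM in day 0 replicates 1, 2 and 3 and 561, 579 and 612 CPM in 30 h replicates 1, 2 and 3. The lowest 30 h library was far above the highest day 0 library. The rise was 3.17-fold (log2 change 1.67, SE 0.09, edgeR adjusted p = 2.7e-06).

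Gabarapl1, whose coding sequence is the most like that of Gabarap, had the smallest rise of the family (chromosome 6, 129533160 to 129542346, plus strand). It stood at 102, 105 and 107 CPM at day 0 and at 138.5, 131.0 and 157 CPM at 30 h. The groups did not overlap, but the step was small: 1.36-fold, a log2 change of 0.44 (SE 0.10, edgeR adjusted p = 0.00409). This call depended on the scaling. With library totals only, its log2 change was -0.05 (edgeR adjusted p = 0.655), and with upper-quartile scaling it was 0.32 (edgeR adjusted p = 0.0556). In part of its exons, 570 bases, it overlaps the non-coding gene 1700101I11Rik on the other strand, which had 5 to 8 counts at day 0 and 24 to 33 at 30 h.

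Gabarapl2, also known as GATE-16, lies on chromosome 8 (111940703 to 111953612, plus strand) and had the lowest level per length of the ATG8 genes in both groups. Its values were 8.03, 7.91 and 8.38 CPM at day 0 and 31.4, 34.6 and 54.3 CPM at 30 h. All 30 h libraries were above day 0, and 30 h replicate 3 was well above the other two. The rise of 4.94-fold (log2 change 2.30, SE 0.21, edgeR adjusted p = 3.47e-05) was the steepest fitted rise of the ATG8 family. Without 30 h replicate 3 the log2 change was 2.03. Gm3724, a processed pseudogene of Gabarapl2 with 99.4% identity over 349 bases, had at most 6 counts in any library. How reads matching both were counted is not known here, so the level of Gabarapl2 may be too low.

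In the LC3 branch, Map1lc3b, which encodes the protein used most widely as a marker of autophagosomes, rose from 54.6, 55.6 and 58.1 CPM at day 0 to 198, 203.5 and 234 CPM at 30 h (chromosome 8, 121590361 to 121598760, plus strand). The groups were far apart relative to their spread, with a 3.77-fold rise (log2 change 1.92, SE 0.10, edgeR adjusted p = 2.49e-06). Processed pseudogenes of this gene took few counts: the one most like it, Gm6055, with 99.7% identity over 375 coding bases, had 25 to 42 counts at day 0 and 68 to 114 at 30 h, against 1916 to 1932 and 3414 to 4015 for Map1lc3b. Adding the counts of such copies gave a log2 change of 1.93, but how reads matching several of them were counted is not known here.

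Map1lc3a, the other LC3 gene, had 20.5, 21.8 and 19.6 CPM at day 0 and 29.5, 32.2 and 36.3 CPM at 30 h (chromosome 2, 155276297 to 155278073, plus strand). These groups did not overlap, and the rise was 1.58-fold (log2 change 0.66, SE 0.11, edgeR adjusted p = 0.000966). The size of this rise moved with the processing more than that of any other member. It was 0.17 and no longer past the threshold with library totals only (edgeR adjusted p = 0.198), and 1.80 (edgeR adjusted p = 2.31e-06) with each library's dependence on GC content removed. The longest Map1lc3a transcript has a GC content of 63.1%, the highest of the members, which otherwise range from 42.2% to 54.5%.

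Among the proteases, Atg4a rose the most (chromosome X, 140956907 to 141164270, plus strand). Its protein is known to act mainly on the GABARAP branch. Counts were 275 to 293 per library at day 0 and 883 to 1113 at 30 h, or 7.77, 8.05 and 8.89 CPM against 50.5, 52.6 and 70.1 CPM. Each 30 h library exceeded each day 0 library several times over, with 30 h replicate 3 the highest. The rise was 7.0-fold (log2 change 2.81, SE 0.16, edgeR adjusted p = 3.2e-06; 2.65 without 30 h replicate 3), at the 96.8th percentile of the changes of all genes tested. The retrogene Atg4a-ps, 99.4% identical over the coding sequence, had at most 10 counts in any library, but how reads matching both were counted is not known here.

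Atg4d was the other protease gene with a steep rise (chromosome 9, 21265293 to 21277772, plus strand). The ATG4D protein can be cut by caspase 3 and has been linked to mitochondria. It stood at 54.6, 46.9 and 49.2 CPM at day 0 and at 225, 231 and 232 CPM at 30 h, with little spread in either group. The log2 change of 2.19 had an SE of 0.10 (edgeR adjusted p = 1.24e-06). Its exons share 1405 bases with Kri1 on the opposite strand, which had 460 to 534 counts at day 0 and 166 to 300 at 30 h, and reads of the 2 genes may not have been separated.

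Atg4b encodes the protease with the broadest activity on ATG8 proteins and had the highest level per length of the ATG4 genes at day 0 (chromosome 1, 93751500 to 93790610, plus strand). It had 79.0, 76.8 and 74.2 CPM at day 0 and 133, 124 and 112 CPM at 30 h. The 30 h libraries were all higher, by 1.61-fold on fitting (log2 change 0.68, SE 0.10, edgeR adjusted p = 0.000367). With library totals only, the log2 change was 0.20 and not past the threshold (edgeR adjusted p = 0.125).

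Atg4c was the member with lower values at 30 h (chromosome 4, 99193934 to 99259787, plus strand). The protein it encodes is a poor protease in its full-length form. It had 353 to 423 counts per library at day 0 and 112 to 172 at 30 h, or 12, 10.4 and 10.7 CPM against 8.19, 10.3 and 7.05 CPM. The highest 30 h library lay just under the lowest day 0 library. The log2 change was -0.37 (95% interval -0.74 to -0.01, edgeR adjusted p = 0.0621), which did not pass. It did pass without 30 h replicate 2 (-0.53, edgeR adjusted p = 0.0154), with library totals only (-0.86, edgeR adjusted p = 0.00235), with upper-quartile scaling (-0.52, edgeR adjusted p = 0.0161), with no filter on low counts (-0.47, edgeR adjusted p = 0.0242) and in DESeq2 (-0.40, adjusted p = 0.0402).

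**Figure D2:**
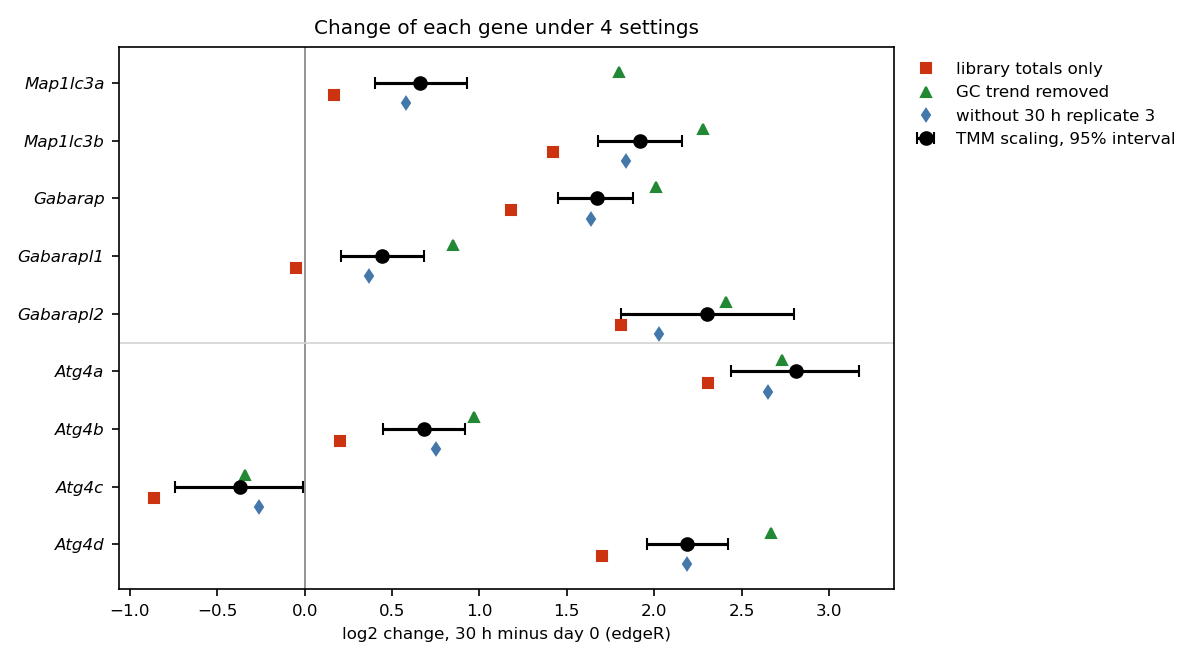
Fitted log2 change from day 0 to 30 h (horizontal axis) of each gene. Black circles with bars are TMM scaling with its 95% interval, red squares use library totals only, green triangles have the GC trend removed and blue diamonds leave out 30 h replicate 3. With library totals only, Gabarapl1 lies at -0.05 in place of 0.44 and Atg4c at -0.86 in place of -0.37.

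With library totals only, the median log2 change over all genes tested was -0.58 in place of -0.09, and every member was lower by a like amount. Under that setting 5 members were called higher (Map1lc3b, Gabarap, Gabarapl2, Atg4a and Atg4d) and 1 lower (Atg4c), against 22.3% and 54.4% of all genes tested. The median over the members was then 1.18.

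Because scaling cannot alter a ratio of 2 genes within a library, 8 such ratios were compared to ask whether members changed unequally. Separation of the groups was common for single genes, with 36.3% of all genes tested higher and 43.4% lower without overlap. How often ratios of other genes separate was not tested. In all 8 ratios the day 0 and 30 h libraries were fully separated. A two-sided exact permutation test gave p = 0.1 for each (0.1 after Benjamini-Hochberg adjustment), the smallest value possible with 3 libraries against 3, so no ratio could pass 0.05. There were 2.67, 2.56 and 2.97 Map1lc3b counts per Map1lc3a count at day 0 and 6.72, 6.32 and 6.44 at 30 h. Every 30 h library thus held more Map1lc3b relative to Map1lc3a than any day 0 library. Removal of the GC trend, unlike scaling, can alter such ratios and was not applied to them. With the GC trend removed, the log2 changes of Map1lc3b and Map1lc3a were 2.28 and 1.80, closer together than 1.92 and 0.66 under TMM. In the GABARAP branch the ratio of Gabarapl1 to Gabarap went from 0.533, 0.590 and 0.582 to 0.247, 0.226 and 0.256, so that Gabarap per Gabarapl1 was 2.34-fold higher. The ratio of Gabarapl2 to Gabarap was 1.51-fold higher at 30 h and that to Map1lc3b 1.27-fold higher. These values were uneven: 30 h replicate 3 had 0.0889 Gabarapl2 counts per Gabarap count and the other 30 h libraries 0.0559 and 0.0598. The smallest shift of the 8 was that of Gabarap to Map1lc3b, with 3.5, 3.19 and 3.15 Gabarap counts per Map1lc3b count at day 0 and 2.83, 2.84 and 2.62 at 30 h.

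Among the proteases the shifts in log2 ratio were 1.51, 2.11 and -1.07, all measured against Atg4b. Atg4d counts per Atg4b count went from 0.691, 0.611 and 0.664 at day 0 to 1.69, 1.86 and 2.07 at 30 h, so Atg4d had fewer counts than Atg4b in every day 0 library and more in every 30 h library. For Atg4a the ratio to Atg4b was 4.32-fold higher, at 0.0986, 0.105 and 0.120 at day 0 and 0.380, 0.424 and 0.624 at 30 h. Atg4c counts per Atg4b count were lower at 30 h, between 0.0617 and 0.0828 against 0.135 to 0.151 at day 0.

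**Figure D3:**
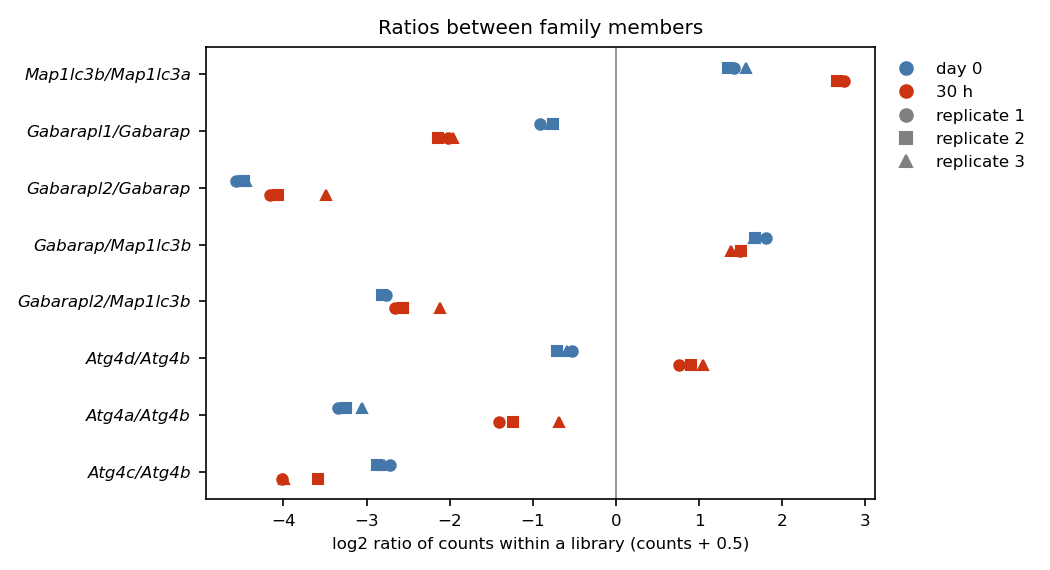
Log2 ratio of the counts of 2 genes within each library (horizontal axis, 0.5 added to each count), with blue points for day 0, red points for 30 h and shape for the replicate number. Blue and red points do not overlap in any of the 8 rows, and the widest gap is that of Atg4a to Atg4b, from a mean of -3.22 to -1.11.

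Levels were set side by side per length, as RPKM (CPM per kilobase of annotated exon). At day 0 the order in the ATG8 family was Gabarap (99.7 ± 3.81 RPKM, mean ± SD, n = 3), Gabarapl1 (51.9 ± 1.18), Map1lc3a (17.4 ± 0.931), Map1lc3b (7.47 ± 0.242) and Gabarapl2 (3.49 ± 0.105). At 30 h it was Gabarap (317 ± 13.9 RPKM), Gabarapl1 (70.6 ± 6.58), Map1lc3b (28.2 ± 2.57), Map1lc3a (27.6 ± 2.90) and Gabarapl2 (17.2 ± 5.35), where the LC3 genes did not differ beyond their spread. The place of Map1lc3b depends on the length used, since its annotated exons span 7517 bases and its principal transcript is much shorter: per base of principal transcripts it had 22.2 RPKM at day 0 and 83.7 at 30 h, above Map1lc3a (18.5 and 29.3) in both groups and above Gabarapl1 (78.1) at 30 h.

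The summed RPKM of the ATG8 family was 182, 177 and 180.2 at day 0 and 438, 448 and 495 at 30 h. Gabarap held the largest share of that sum in all 6 libraries, with 55.4% ± 1.35 in the day 0 group and 68.9% ± 1.6 in the 30 h group (mean ± SD of 3 libraries), while the share of Gabarapl1 went from 28.8% ± 0.922 to 15.3% ± 0.692. The GABARAP branch as a whole held 86.2% ± 0.622 and 87.9% ± 0.391. This order flipped with principal transcript lengths, at 83.0% and 82.6%, and with the GC trend removed, at 88.2% and 86.2%.

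The ATG4 family had a sum of 23.5, 21.9 and 22.3 RPKM at day 0 and 68.4, 69.6 and 74.0 RPKM at 30 h. Its order at day 0 was Atg4b (9.26 ± 0.293 RPKM), Atg4d (6.91 ± 0.541), Atg4c (3.29 ± 0.247) and Atg4a (3.10 ± 0.219), the last 2 within their spread. At 30 h it was Atg4d (31.6 ± 0.568 RPKM), Atg4a (21.7 ± 4.04), Atg4b (14.9 ± 1.25) and Atg4c (2.54 ± 0.484). With the longest transcript as length, Atg4b (29.4 RPKM) stood above Atg4a (26.2) at 30 h. The share of Atg4c in the family sum went from 14.6% ± 0.519 to 3.60% ± 0.775. These sums and shares describe the libraries and carry no test.

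**Figure D4:**
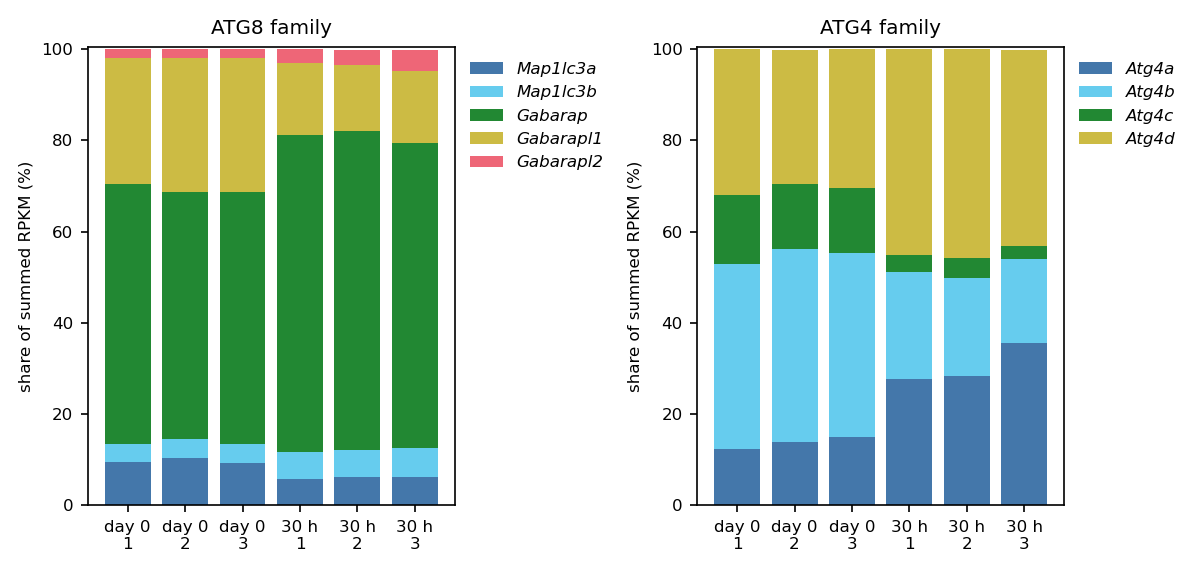
Share of each gene in the summed RPKM of its family (vertical axis, percent) in each of the 6 libraries, on annotated exon lengths. Gabarap grows from between 54.2% and 56.9% of the ATG8 sum to between 67.0% and 70.0%, and Atg4d and Atg4a replace Atg4b as the larger ATG4 shares.

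Of 7 genes of the machinery that couples ATG8 proteins to lipid, 4 rose and 1 fell, with a median log2 change of 0.48. Over all genes tested, 34.4% were called higher and 40.1% lower. Atg12, which encodes the ubiquitin-like partner of ATG5, rose the most, from 43.5, 40.6 and 44.8 to 129.8, 127 and 149 CPM (3.15-fold, edgeR adjusted p = 4.96e-06). Atg16l1, Atg3 and Atg5 also rose, by 2.48-fold, 1.39-fold and 1.41-fold. Atg7, the E1-like enzyme that activates ATG8 and ATG12, fell from 40.1, 40.1 and 39.7 to 32.7, 33.8 and 30.2 CPM (log2 change -0.31, edgeR adjusted p = 0.017). That call was lost without day 0 replicate 1, 2 or 3 (edgeR adjusted p = 0.0591, 0.0552 and 0.0527). The log2 change there stayed at -0.32, -0.32 and -0.33, and 0 genes of the list were then called lower by edgeR. With the GC trend removed, the log2 change of Atg7 was 0.10. Without 30 h replicate 3, 2 genes of the list were called lower. Shares of all genes called with a library left out were not worked out. Without day 0 replicate 2 the rise of Atg5 did not pass (edgeR adjusted p = 0.0641), nor did it with upper-quartile scaling (0.0907) or library totals only (0.994). The counts were 2 higher and 3 lower with library totals only, where the log2 change of Atg3 was -0.01. In that setting 22.3% of all genes tested were higher and 54.4% lower. Atg16l1, Atg3, Atg5 and, below, Gata1, Becn1, Sqstm1, Bnip3l, Optn and Tfeb were named after their values were seen.

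Genes of initiation and nucleation, which act before ATG8 is coupled, rose in 11 of 20 cases and fell in 2. Over all genes tested, 34.4% were called higher and 40.1% lower. Wipi1, encoding a reader of the phagophore lipid, went from 18.8, 21.3 and 21.9 to 131, 117 and 95.9 CPM (5.55-fold, edgeR adjusted p = 3.64e-06), and Wipi2, whose protein recruits ATG16L1, rose 2.98-fold. Becn1, a subunit of the lipid kinase complex, rose 2.48-fold. Pik3r4, the regulatory subunit of that kinase, fell by 0.94 on the log2 scale (edgeR adjusted p = 0.00198). Without 30 h replicate 1, 5 genes were called lower, and with library totals only the counts were 7 higher and 7 lower. In the latter setting 22.3% of all genes tested were higher and 54.4% lower. No such share was worked out without 30 h replicate 1.

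Among 18 cargo receptor genes, whose proteins bind coupled ATG8, 17 were tested, and 11 rose and 2 fell. Over all genes tested, 34.4% were called higher and 40.1% lower. Bnip3, a mitochondrial receptor, rose the most, from 9.53, 8.83 and 9.80 to 167, 170.2 and 246 CPM (20.7-fold, edgeR adjusted p = 1.11e-06). Its relative Bnip3l rose 3.38-fold, from 93.9, 84.9 and 94.9 to 272.5, 273 and 380.2 CPM. Sqstm1, which encodes p62, rose 2.14-fold and Optn 5.49-fold. Phb2, which encodes an inner mitochondrial membrane protein, fell by 1.01 on the log2 scale, from 716, 709 and 705 to 337, 348 and 369 CPM (edgeR adjusted p = 2.24e-05), and Stbd1, a glycogen receptor gene, fell by 1.61. The counts were 7 higher and 6 lower with library totals only, against 22.3% and 54.4% of all genes tested.

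Of 15 genes for fusion of the autophagosome with the lysosome, 5 rose and 2 fell, with a median log2 change of 0.26. Over all genes tested, 34.4% were called higher and 40.1% lower. The share of the list that rose was close to the former, so the count of rises is no result about this list. Whether its falls were fewer than among all genes was not tested. Snap29, a SNARE gene, rose 1.54-fold (edgeR adjusted p = 0.000427), and Vamp8, which encodes its lysosomal partner, rose 1.29-fold (edgeR adjusted p = 0.0178). Rubcn, an inhibitor of fusion, fell by 0.60 on the log2 scale (edgeR adjusted p = 0.00998); with the GC trend removed its log2 change was -0.12 and did not pass (edgeR adjusted p = 0.542). These counts moved when a library was left out, and why was not tested. Higher genes numbered 3, 2 and 2 without day 0 replicates 1, 2 and 3, then 3 and 10 without 30 h replicates 2 and 3. Lower genes numbered 1 without any of the day 0 replicates or without 30 h replicate 2, and 4 without 30 h replicate 1. Shares of all genes called with a library left out were not worked out. These counts therefore cannot be read against 34.4% and 40.1%. With library totals only 0 were higher in edgeR (Snap29 at a log2 change of 0.13, Vamp8 at -0.13) and 5 lower. Of all genes tested, 22.3% were then higher and 54.4% lower. The call of Vamp8 was also lost without day 0 replicate 2 or 3 (edgeR adjusted p = 0.0872 and 0.0763), and so it was if low counts stayed unfiltered (0.106) or under upper-quartile factors (0.18).

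Of 9 transcription factor genes tied to autophagy genes, 5 rose and 2 fell, against 34.4% and 40.1% of all genes tested. Foxo3 went from 73.0, 73.3 and 76.0 to 601, 439.8 and 272 CPM (5.91-fold, edgeR adjusted p = 6.02e-05), and Gata1 from 203, 194 and 203 to 562, 491 and 459 CPM. In 30 h replicate 3 both were lowest of their group by CPM. Of the members, all 5 ATG8 genes, Atg4a and Atg4d were highest there, and Atg4b and Atg4c were lowest. Atg4d was highest by little, at 232.4 CPM against 231.0 CPM in 30 h replicate 2. Klf1, an erythroid factor gene, rose 1.76-fold. Scaled by library totals only, its log2 change was 0.33 and did not pass (edgeR adjusted p = 0.0694). In that setting 3 of the list were higher, as were 22.3% of all genes tested. Gata1 and Klf1 are also among the erythroid markers. Foxo1 fell by 0.95 on the log2 scale. Tfeb, a regulator of lysosome genes, fell by 0.68 (edgeR adjusted p = 0.00327), but its log2 change was 0.46 with the GC trend removed (edgeR adjusted p = 0.0298).

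**Figure D5:**
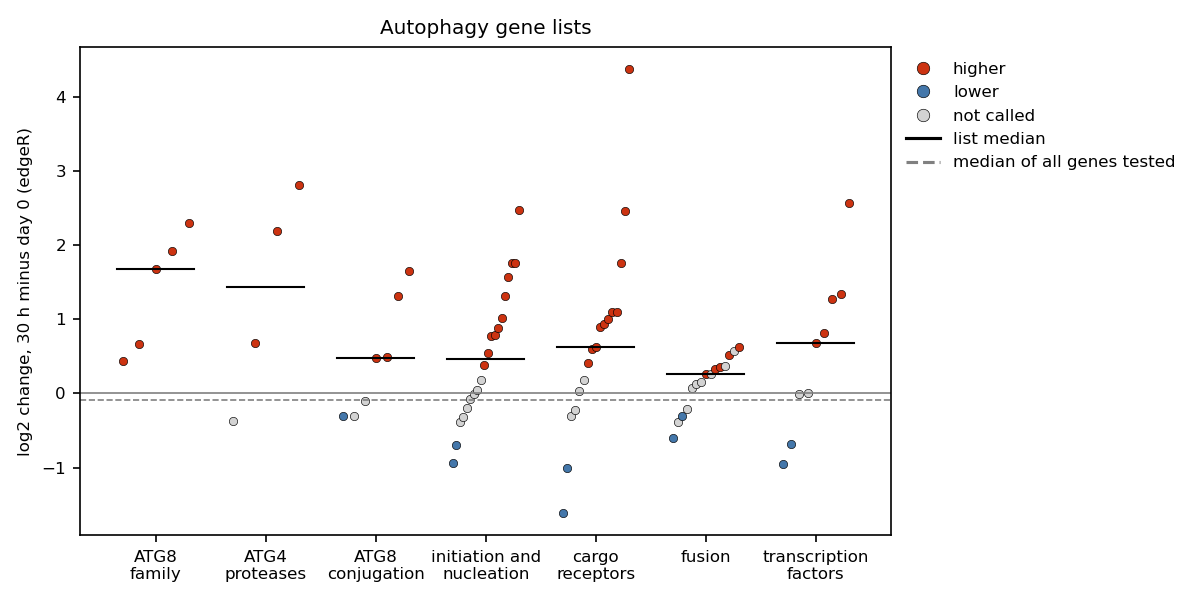
Log2 change from day 0 to 30 h (vertical axis) of every tested gene of the ATG8 and ATG4 families and of 5 lists of other autophagy genes. Red points were called higher, blue lower and grey neither, black lines are list medians and the dashed line is the median of all genes tested (-0.09). The medians of the ATG8 and ATG4 families are 1.67 and 1.44 and those of the other lists run from 0.26 to 0.68.

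The genes whose levels followed the steepest member of each family most closely over the 6 libraries were found by Euclidean distance between centred log2 CPM profiles, among 9117 protein-coding genes of at least 10 CPM on average. Nearest to Gabarapl2 were Gpx4, which encodes a lipid peroxide reductase (distance 0.126), Cox6c, a subunit of cytochrome c oxidase (0.158), and Pdcd10 (0.173). Gpx4, for example, went from 72.1, 64.2 and 71.2 to 272, 283 and 444 CPM, again with 30 h replicate 3 highest. Nearest to Atg4a were Cdkn2d, an inhibitor of cyclin-dependent kinases (0.172), Arl4a, a small GTPase gene (0.195), and Cdkn3, a phosphatase gene of the cell cycle (0.202). Profiles of only 2 groups are dominated by the step between them.

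Promoter windows, from 250 bases before to 50 bases after a transcription start, were on hand from RefSeq (build GRCm38.p6) for 8 members, with 10 windows, as Atg4a and Atg4c have 2 each. On both strands they were searched for 4 motifs: that of the GATA factors (spelled AGATAA or else AGATAG, with the forms TGATAA or else TGATAG also counted), a FOXO motif (GTAAACA), the E-box core of the CLEAR element (CACGTG) and a KLF1 motif (CCACACCC). Of all 32851 windows, 29.8%, 3.65%, 7.15% and 3.56% hold these. A GATA motif was found in 2 of the 10 member windows, those of Atg4d and of one Atg4a start, and the KLF1 motif in 1, that of Atg4d. FOXO and E-box letters were in none. The windows of Atg4d and Atg4a, the protease genes that rose the most, are shown because they hold the matches, which are in capitals. They lie at chr9:21265035-21265334 and chrX:140953595-140953894, both on the plus strand.
Atg4d: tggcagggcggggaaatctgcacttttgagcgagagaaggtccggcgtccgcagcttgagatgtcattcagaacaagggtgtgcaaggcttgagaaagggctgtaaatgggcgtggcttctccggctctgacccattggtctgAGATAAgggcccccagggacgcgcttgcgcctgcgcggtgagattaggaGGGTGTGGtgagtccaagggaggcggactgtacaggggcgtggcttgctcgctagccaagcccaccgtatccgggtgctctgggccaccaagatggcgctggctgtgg
Atg4a: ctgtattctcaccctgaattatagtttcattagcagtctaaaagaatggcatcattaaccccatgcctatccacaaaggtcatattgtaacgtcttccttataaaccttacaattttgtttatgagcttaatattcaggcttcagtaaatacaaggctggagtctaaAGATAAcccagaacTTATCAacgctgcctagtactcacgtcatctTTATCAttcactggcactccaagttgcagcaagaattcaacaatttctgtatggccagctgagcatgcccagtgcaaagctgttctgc
The Atg4d window has 1 GATA match and 1 KLF1 match on the reverse strand. The Atg4a window, upstream of the start annotated in GENCODE M21, has 3 GATA matches, of which 2 are on the reverse strand, and the other Atg4a window has 0 matches. A match describes these letters only, and binding was not measured here.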

How the data were processed

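RNA-seq libraries of 3 day 0 and 3 30 h samples were used, grouped by their titles. The authors deposited whole-number counts per Ensembl gene. Build mm10 and the tools STAR, DESeq2, cutadapt 1.13 and HTSeq 0.6.1p1 are listed, without order, in the submitters' processing notes. Strand use in counting and read length are not given in the sources used here. Whether replicates were separate cultures or animals is not stated; p-values therefore reflect the spread between these samples alone, which may be technical.

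Of the gene IDs, 54165 were found in GENCODE M21 (GRCm38, the assembly of mm10). Genes kept by filterByExpr were scaled by TMM and tested with edgeR 4.0.16 (quasi-likelihood, robust, Benjamini-Hochberg over 16150 genes, threshold 0.05; R 4.3.3); each SE is the log2 change divided by the root of its F. Biological variation (BCV) came to 5.28% within day 0 and 20.5% within 30 h. RPKM used the union of exons. Ratios used counts plus 0.5 (scipy 1.17.1, exact permutation). Copies were found with blastn 2.17.0 (at least 90% identity over at least 80% of the coding sequence). The fit was also run on simulated data with equal variation in both groups and few changed genes. These data differ in both respects, so that run does not show how accurate the fit is here.

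Members, lists, rules and alternatives were chosen with earlier results of these data known. Named genes are the members, the largest rise, largest fall and highest mean CPM over all 6 libraries in each list, and the 3 genes nearest the steepest member of each family. Alternatives were other scalings, no filter, DESeq2 1.42.0, limma-trend (limma 3.58.1), replicate number as a block, GC trend removed, copies added, other lengths, another pseudocount and each library left out; principal transcript length was chosen after seeing the data. The coding end of 1 ATG8 gene is not reported here.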

Additional observations from a re-analysis of the deposited data

How the results depend on the processing

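Over the 16 alternatives to the fit, Map1lc3b, Gabarap, Gabarapl2, Atg4a and Atg4d kept direction and call, with log2 changes of 1.42 to 2.28, 1.18 to 2.01, 1.81 to 2.52, 2.31 to 2.96 and 1.70 to 2.67. Library totals only gave 5 members higher and 1 lower; 2 conjugation genes higher and 3 lower; 7 and 7 for initiation; 7 and 6 for cargo receptors; 0 and 5 for fusion; and 3 transcription factors higher. Of all genes tested, 22.3% were higher and 54.4% lower in that setting. Log2 changes with library totals only were -0.05 for Gabarapl1, -0.13 for Vamp8 and -0.01 for Atg3. Upper-quartile scaling gave 1 member, 5 initiation and 4 fusion genes lower and 2 fusion genes higher; no filter gave 1 member and 4 initiation genes lower and 3 fusion genes higher; DESeq2 gave 1 member lower; DESeq2 size factors gave 8 fusion genes higher. With the GC trend removed, 9 fusion genes were higher and 0 lower in edgeR, 1 transcription factor was lower, and the log2 changes of Atg7 and Tfeb were 0.10 and 0.46. Shares of all genes called were worked out for TMM scaling and library totals only. Counts under the other settings, or with a library left out, cannot be set against such a share.

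Leaving out 1 library at a time gave 8 members higher and 0 to 1 lower; 3 to 4 and 0 to 2 conjugation genes; 10 to 12 and 2 to 5 for initiation; 10 to 11 and 2 to 3 for cargo receptors; 2 to 10 and 1 to 4 for fusion; and 5 and 2 for transcription factors. The log2 ratio of summed RPKM was 1.35 for ATG8 and 1.65 for ATG4; library totals gave 0.86 and 1.16, upper-quartile factors 1.22 and 1.51, and removal of the GC trend 1.76 and 1.90. It was 1.51 for ATG4 with the longest or principal transcript as length, and 1.30 to 1.45 and 1.61 to 1.73 with 1 library left out. The GABARAP branch share was 88.2% and 86.2% at day 0 and 30 h with the GC trend removed, 86.9% at 30 h with the longest transcript, and 83.0% and 82.6% with principal transcripts. All 8 ratios kept their direction with copies added, another pseudocount, the replicate block and each library left out. They were not computed with the GC trend removed. The causes of these shifts were not tested.

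Same-numbered libraries showed no sign of pairing (correlations of their deviations -0.105, 0.105 and -0.0293, against -0.108 to 0.141 for other number pairs). Such weak correlations from 3 libraries per group cannot decide whether same-numbered libraries share an origin. A fit with a replicate block left 8 members higher and 0 lower by edgeR, with Atg4c at an adjusted p of 0.0893, and the 8 ratios had p = 0.25 in a two-sided exact sign-flip test, the smallest that 3 pairs allow. The depth limits Atg4c most, with 112 counts in 30 h replicate 3.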
